A study of Mus musculus with 9 samples.

Results

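The miR-148 and miR-152 family of epididymosomes was followed across the 3 segments of the mouse epididymis. Its members were taken by name, as every mature miRNA called miR-148a, miR-148b or miR-152, which gave 6 of the 358 miRNAs in the table: the 5p and the 3p strand of each of the 3 precursors. Epididymosomes are small vesicles that the epididymal epithelium sheds into the lumen. They came from male Swiss mice aged 8 weeks, described as inbred and with no treatment or genetic change given, and were purified on a density gradient from luminal fluid released by incising the caput (proximal), corpus and cauda (distal) segments. Each segment had 3 libraries of small RNA, 9 in all, and each library was made from RNA pooled over several animals, so that the spread reported here lies between pools and not between single mice.

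Mature miRNAs of 21 to 24 bases guide Argonaute proteins to messenger RNAs, chiefly through bases 2 to 8, the seed. Each precursor hairpin yields a strand from its 5′ arm (5p) and a strand from its 3′ arm (3p), of which the more stable guide strand is usually retained and the passenger strand largely degraded. The guide strands of miR-148a, miR-148b and miR-152 are 3p strands and share a seed, so that they are predicted to repress largely the same transcripts. These include transcripts of the maintenance DNA methyltransferase Dnmt1 in many cell types, for which reason the family is often counted among the miRNAs that act on the epigenome. miR-148a is also known as a regulator of the low density lipoprotein receptor in the liver.

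The 6 mature sequences, taken from RefSeq annotation of GRCm38.p6, are shown because the 3 guide strands, listed first, differ widely in level but hardly in sequence. Capitals mark the seed, and each sequence is written 5′ to 3′.
miR-148a-3p: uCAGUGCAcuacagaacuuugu
miR-148b-3p: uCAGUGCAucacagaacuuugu
miR-152-3p: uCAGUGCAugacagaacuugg
miR-148a-5p: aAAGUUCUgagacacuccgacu
miR-148b-5p: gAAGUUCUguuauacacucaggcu
miR-152-5p: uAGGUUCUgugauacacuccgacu

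The 3 guide strands carried the seed CAGUGCA, and no other mature mouse miRNA among the 1679 names in the RefSeq table had it at bases 2 to 8. Counted from 1 at the 5′ end, miR-148a-3p differed from miR-148b-3p by C9U and U10C. miR-148a-3p differed from miR-152-3p by C9U, U10G and U20G, with miR-152-3p 1 base shorter, and miR-148b-3p differed from miR-152-3p by C10G and U20G. Reads of these strands are therefore separated by 2 or 3 bases, and whether some were counted under the wrong name was not tested. On the passenger side, miR-148a-5p and miR-148b-5p shared the seed AAGUUCU and miR-152-5p had AGGUUCU.

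The hairpins are shown with the mature strands in capitals, since the passenger and guide strands of each were both measured.
Mir148a: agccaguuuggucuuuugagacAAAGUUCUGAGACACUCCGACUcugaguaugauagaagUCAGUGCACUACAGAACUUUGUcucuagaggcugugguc
Mir148b: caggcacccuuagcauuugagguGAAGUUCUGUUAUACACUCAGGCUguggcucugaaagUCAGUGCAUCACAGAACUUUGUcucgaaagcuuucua
Mir152: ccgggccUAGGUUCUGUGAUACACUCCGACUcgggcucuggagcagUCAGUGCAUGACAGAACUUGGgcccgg

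In GRCm38 the hairpin of miR-148a lies on chromosome 6 from 51269812 to 51269910, on the minus strand, between genes rather than within any. The nearest protein-coding genes on either side are Nfe2l3 at 162.8 kb and Npvf at 615 kb. The hairpin of miR-148b lies on chromosome 15 from 103285125 to 103285221, on the plus strand, in an intron of Copz1. The hairpin of miR-152 lies on chromosome 11 from 96850393 to 96850465, on the plus strand, in an intron of Copz2. Copz1 and Copz2 encode alternative zeta subunits of the coatomer, the coat of vesicles that move between the Golgi apparatus and the endoplasmic reticulum. The closest other hairpins with a strand in the table are those of miR-196b at 960 kb from Mir148a, miR-196a at 312 kb from Mir148b and miR-10a at 533 kb from Mir152. The 5p strands that bear the names of both miR-196 neighbours rose toward the cauda. The hairpin near Mir148b is Mir196a-2, and whether the reads of miR-196a-5p came from it was not tested. miR-196b-5p had means of 7.09, 93.9 and 1046 CPM in caput, corpus and cauda, and miR-196a-5p had 5.35, 82.4 and 328 CPM. The third neighbour, miR-10a-5p, fell, with 245070, 194732 and 148528 CPM.

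The depth of the libraries ran from 1548581 to 11306605 reads on miRNAs, deepest in the caput. Levels are given in CPM, counts of a miRNA for every 1000000 miRNA reads in its library. How evenly strands of different sequence were captured was not tested. Levels and shares of different strands are therefore compared as reads and not as amounts of RNA. With library size scaling each value depends on the most abundant miRNAs: miR-10a-5p and miR-10b-5p took between 50.5% and 71.3% of caput reads, between 50.3% and 53.2% of corpus reads and between 33.2% and 34.5% of cauda reads. With miR-143-3p added, the shares were 59.3% to 76.3% in the caput, 60.1% to 62.4% in the corpus and 63.2% to 68.4% in the cauda. Changes are therefore also given after TMM normalization, which scales by the bulk of the miRNAs, and relative to the median of all miRNAs tested. That median moved by 0.47 on the log2 scale from caput to corpus, 0.18 from corpus to cauda and 0.81 from caput to cauda with library size, against -0.09, 0.08 and 0.13 with TMM normalization. All 6 members had more than 3 reads, the floor used for detection, in all 9 libraries, with 26 reads of miR-148b-5p in corpus replicate 3 as the lowest number.

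The family was very uneven. By mean over the 9 libraries miR-148a-3p stood at place 5 of the 358 miRNAs with 30116 CPM. The paper names miR-30a-5p, and not miR-148a-3p, among those with its highest read scores, a measure that may differ from mean CPM. Within the family miR-148b-3p followed at place 67 with 624 CPM, miR-152-3p at place 104 with 189 CPM and miR-148a-5p at place 125 with 137 CPM. Then came miR-152-5p at place 193 with 45.4 CPM and miR-148b-5p at place 263 with 16.5 CPM. The order among miR-152-3p and miR-148a-5p depended on the segment, since miR-148a-5p was the higher in every caput library and miR-152-3p in the corpus libraries except corpus replicate 2 and in every cauda library.

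miR-148a-3p, the dominant guide strand, was at 44275, 26327 and 60668 CPM in caput replicates 1 to 3. It was at 31853, 34939 and 32237 CPM in the corpus and at 10851, 14812 and 15082 CPM in the cauda. Every cauda library lay below every other library, whereas the caput libraries spanned the corpus values. Caput libraries averaged 43757 ± 17176 CPM (SD, n = 3), those of the corpus 33010 ± 1682 CPM (SD, n = 3) and those of the cauda 13581 ± 2369 CPM (SD, n = 3), so that its place among all miRNAs went from 4 in each caput library to between 9 and 11 in the cauda. The spread of the caput libraries, a coefficient of variation of 39.3%, was 6.03% after TMM normalization. On that scale the caput values were 58761, 55100 and 52104 CPM, all above the corpus values of 28537 to 30617 CPM.

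miR-148a-5p, the passenger strand of the same hairpin, fell along with it. Its level was 179, 195 and 349 CPM for the caput, 93.0, 151 and 104 CPM for the corpus and 51.0, 43.5 and 72.1 CPM for the cauda. The libraries of the 3 segments did not overlap. The means were 241 ± 93.9 CPM (SD, n = 3), 116 ± 30.7 CPM (SD, n = 3) and 55.5 ± 14.8 CPM (SD, n = 3) from caput to cauda.

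miR-148b-3p, which has the same seed, was at 527, 517 and 1081 CPM for the caput, 453, 449 and 736 CPM for the corpus and 396, 710 and 747 CPM for the cauda. All segments overlapped, and the highest library was caput replicate 3. After TMM normalization the caput values were 699, 1082 and 928 CPM. They lay above the corpus values of 394 to 651 CPM and the cauda values of 365 to 580 CPM. Its passenger strand miR-148b-5p was at 17.8, 7.61 and 19.8 CPM for the caput, 19.9, 16.1 and 16.8 CPM for the corpus and 14.99, 18.3 and 17.0 CPM for the cauda. The low value belonged to caput replicate 2, the library in which miR-10a-5p and miR-10b-5p took the largest share of the reads.

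miR-152-3p ran the other way from miR-148a-3p. It was at 51.6, 43.3 and 98.4 CPM for the caput, 194, 143 and 267 CPM for the corpus and 191, 394 and 317 CPM for the cauda. Every caput library lay below every library of the other segments, while corpus and cauda overlapped. Its partner miR-152-5p was at 37.6, 24.7 and 60.7 CPM for the caput, 41.8, 43.5 and 26.5 CPM for the corpus and 58.0, 71.9 and 43.9 CPM for the cauda, with the caput overlapping both other segments and the cauda lying just above the corpus.

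**Figure D1:**
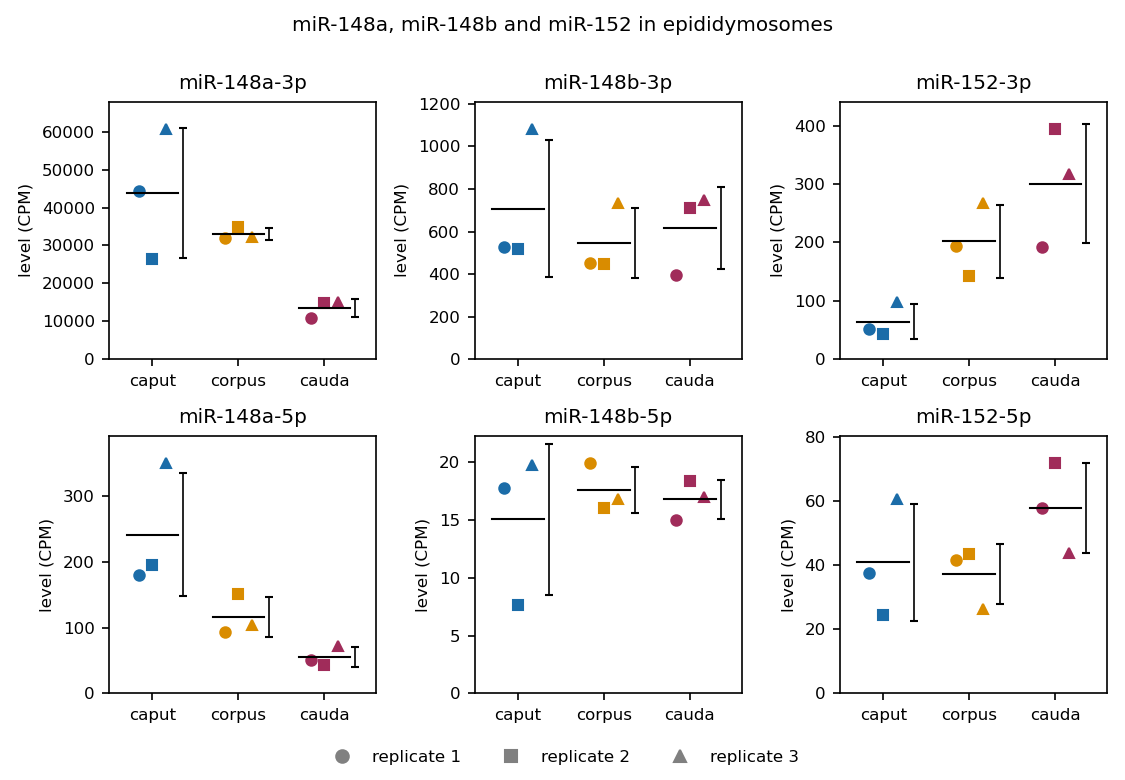
Level in CPM (vertical axes, linear and starting at 0, each with its own range) of the 6 strands in the caput, corpus and cauda. Symbols are single libraries, the horizontal line is the mean of 3 and the bar beside it is the SD; miR-148a-3p falls to 10851 to 15082 CPM in the cauda while miR-152-3p rises from 43.3 to 98.4 CPM in the caput to 191 to 394 CPM in the cauda.

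Segments were compared with limma on log2(CPM + 1) over all 9 libraries, and a miRNA was counted as changed at an adjusted p under 0.05 (Benjamini-Hochberg over all miRNAs tested) with a fold change of at least 2. From caput to cauda 3 of the 6 members changed, 1 higher and 2 lower, against 49.0% of the 349 miRNAs tested (38.7% higher and 10.3% lower). The libraries of these segments did not overlap for the same 3 members, against 54.2% of all miRNAs tested. Cauda libraries held 3.08-fold less miR-148a-3p, a log2 fold change of -1.62 with standard error 0.28 (adjusted p 0.000222, limma). For miR-148a-5p the level was 4.18-fold lower, or -2.06 on the log2 scale with standard error 0.42 (adjusted p 0.000947, limma). miR-152-3p was 4.71-fold higher, or 2.24 on the log2 scale with standard error 0.45 (adjusted p 0.000821, limma). When the test itself asked for more than a 2-fold change, miR-152-3p still passed, at an adjusted p of 0.0494, but miR-148a-3p and miR-148a-5p did not, at 0.0967 and 0.0694.

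The remaining 3 members did not pass. The log2 fold change from caput to cauda was -0.16 for miR-148b-3p, with a 95% interval from -1.04 to 0.72, and 0.55 for miR-152-5p, with an interval from -0.39 to 1.499. That of miR-148b-5p was 0.24, with an interval from -0.70 to 1.19. Changes of more than 2-fold thus lay within the intervals of all 3 strands, and the sign of miR-152-5p and miR-148b-5p turned with TMM normalization, to -0.11 and -0.39. miR-148b-3p had a log2 fold change of -0.84 on that scale, with an adjusted p of 0.0299 by limma but under 2-fold.

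Relative to the median of all miRNAs tested the members had nearly the same values with both scalings. This follows from the method and is no separate check, since TMM normalization divides each library by a single factor, which the median removes. The change of miR-148a-5p minus that median was -2.87 on the log2 scale with either scaling, at place 12 of 349 from the lowest. For miR-148a-3p it was -2.43 with either scaling, at place 21, and for miR-148b-3p it was -0.97 with either. For miR-152-3p it was 1.42 with library size, at place 296 from the lowest, and 1.43 with TMM normalization, at place 293. With TMM normalization the same 3 members changed, miR-148a-3p 4.92-fold and miR-148a-5p 6.65-fold lower and miR-152-3p 2.96-fold higher in the cauda, against 45.3% of the miRNAs tested (24.9% higher and 20.3% lower). The libraries then did not overlap for 5 members, against 58.7% of all.

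From caput to corpus 1 of the 6 members changed, miR-152-3p, which was 3.195-fold higher in the corpus (log2 fold change 1.68, standard error 0.45) with an adjusted p of 0.0149 by limma, where 22.4% of the 321 miRNAs tested changed, 19.0% higher and 3.43% lower. Libraries did not overlap for 2 members, against 34.9% of all. This call rested on corpus replicate 3, without which the log2 fold change was 1.45 and the adjusted p 0.0719. miR-148a-5p was 2.02-fold lower with no overlap of the libraries, yet its adjusted p was 0.0976, and miR-148a-3p had a log2 fold change of -0.33 (standard error 0.28) with an adjusted p of 0.414. With TMM normalization 2 members changed in this step, miR-152-3p (2.15-fold higher, adjusted p of 0.0205 by limma) and miR-148a-5p (3.01-fold lower, adjusted p of 0.00401), against 28.3% of all (13.1% higher and 15.3% lower). On that scale 5 members had no overlap, against 47.7% of all. miR-148a-3p then was 1.87-fold lower with an adjusted p of 0.00285, just short of the fold required. miR-148b-3p was also 1.87-fold lower on that scale, with an adjusted p of 0.0340 by limma and no overlap of the libraries.

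From corpus to cauda 1 of the 6 members changed, against 19.0% of the 342 miRNAs tested (14.0% higher and 4.97% lower). Libraries did not overlap for 3 members, against 46.2% of all. The member that changed was miR-148a-3p, 2.46-fold lower in the cauda (log2 fold change -1.30, standard error 0.28) with an adjusted p of 0.00377 by limma. miR-148a-5p was 2.07-fold lower with an adjusted p of 0.0907; it passed with TMM normalization at 0.0147, where 26.3% of all miRNAs changed (16.4% higher and 9.94% lower), and without caput replicate 3 at 0.0424. miR-152-3p was 1.47-fold higher in this step with an adjusted p of 0.429, and its corpus and cauda libraries overlapped. With TMM normalization 2 members had no overlap in this step, against 47.4% of all. The log2 fold change of miR-148b-3p was 0.16 (standard error 0.42) and that of miR-148b-5p -0.06 (standard error 0.45).

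Testing all segments at once (F test of limma, adjusted after Benjamini-Hochberg) passed for 3 of the 6 members, miR-148a-3p, miR-148a-5p and miR-152-3p, at adjusted p-values of 0.000512, 0.00322 and 0.00214, against 48.9% of the 358 miRNAs. With TMM normalization miR-148b-3p passed as well, at 0.0319, against 57.0% of all.

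**Figure D2:**
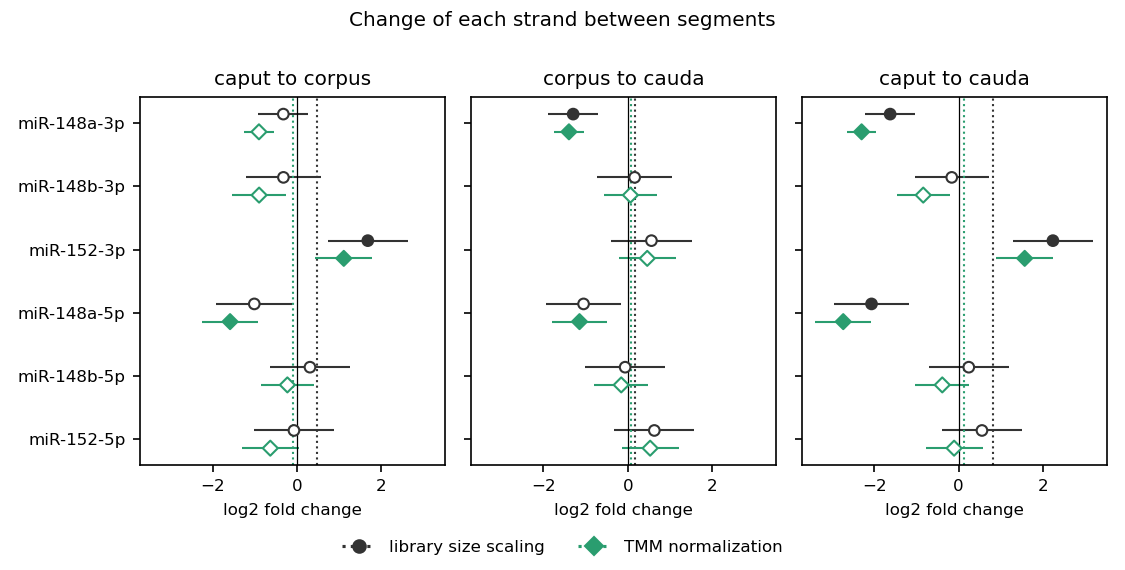
Log2 fold change (horizontal axes, distal minus proximal segment) of the 6 strands in the 3 comparisons, with 95% intervals from limma, for library size scaling (circles) and TMM normalization (diamonds). Filled symbols passed an adjusted p under 0.05 with a 2-fold or larger change, and dotted lines mark the median of all miRNAs tested on each scale; from caput to cauda the miR-148a strands lie left of both medians and miR-152-3p right of them.

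Since the 3 guide strands share a seed, their proportions were compared within each library, where no scaling between libraries enters. Their sum averaged 44529 ± 17482 CPM (SD, n = 3) for the caput, 33757 ± 1580 CPM (SD, n = 3) for the corpus and 14499 ± 2654 CPM (SD, n = 3) for the cauda. Of this seed total miR-148a-3p made up 98.2% ± 0.417 (SD, n = 3) in caput libraries, 97.8% ± 0.705 (SD, n = 3) in those of the corpus and 93.8% ± 0.954 (SD, n = 3) in those of the cauda. The share of miR-148b-3p was 1.61%, 1.62% and 4.18%, and that of miR-152-3p 0.145%, 0.602% and 2.04%. miR-148a-3p thus supplied most of the reads with this seed in all segments. The 2 lesser strands together took between 1.29% and 2.08% of these reads in the caput, between 1.67% and 3.02% in the corpus and between 5.13% and 6.93% in the cauda.

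For each read of miR-152-3p there were 859, 608 and 616 reads of miR-148a-3p in the caput libraries. In the corpus there were 164, 244 and 121, and in the cauda 56.7, 37.6 and 47.6. The segments did not overlap, and the ratio fell at each step. Between caput and cauda the log2 ratio fell by 3.86, a 14.5-fold shift, of which 4.01-fold lay between caput and corpus and 3.62-fold between corpus and cauda. No other of the 280 ways to divide the 9 libraries by 3 separated the groups more (exact permutation of the segment labels, p = 0.00357, which is the smallest possible, and 0.0107 after Benjamini-Hochberg adjustment over the 3 ratios compared).

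miR-148b-3p and miR-152-3p, which both come from introns of coatomer genes, parted between caput and corpus. There were 10.2, 11.9 and 10.98 reads of miR-148b-3p for each read of miR-152-3p for the caput, 2.33, 3.14 and 2.75 for the corpus and 2.07, 1.802 and 2.36 for the cauda. The caput libraries stood far above the rest, and corpus and cauda overlapped. The log2 ratio was 3.44 ± 0.11 (SD, n = 3), 1.44 ± 0.21 (SD, n = 3) and 1.04 ± 0.19 (SD, n = 3), which differed between segments (exact permutation test, p = 0.00714, adjusted 0.0107). The ratio of miR-148a-3p to miR-148b-3p changed at the other step instead. It was 84.1, 50.9 and 56.1 for the caput, 70.2, 77.8 and 43.8 for the corpus and 27.4, 20.9 and 20.2 for the cauda, so that caput and corpus overlapped and the cauda lay below both (exact permutation test over the 3 segments, p = 0.0357, adjusted 0.0357). Between single pairs of segments 3 libraries against 3 cannot give an exact p below 0.10.

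**Figure D3:**
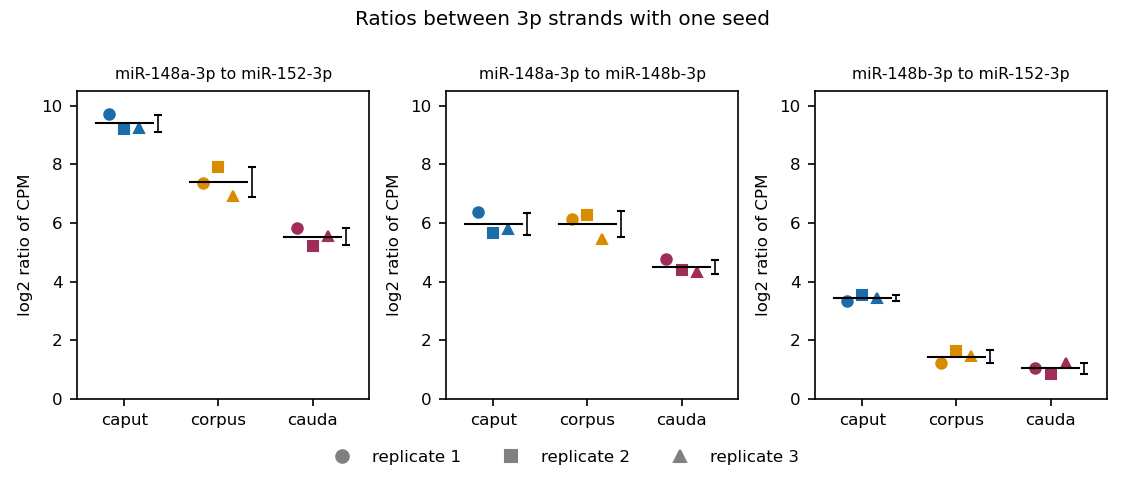
Log2 ratio of CPM between the 3p strands that share the seed, in each library of the caput, corpus and cauda (vertical axes from 0 to the same maximum). Symbols are single libraries, lines means of 3 and bars the SD; the ratio of miR-148a-3p to miR-152-3p falls at both steps, that of miR-148a-3p to miR-148b-3p between corpus and cauda, and that of miR-148b-3p to miR-152-3p between caput and corpus.

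The arms of each hairpin were compared in the same way, as the share of the 5p strand among the reads of both arms. For miR-148a the 5p share was 0.402%, 0.735% and 0.572% for the caput, 0.291%, 0.430% and 0.321% for the corpus and 0.468%, 0.293% and 0.476% for the cauda. It overlapped between segments, and the log2 ratio of the arms differed between caput and cauda by -0.45, with a 95% interval from -1.23 to 0.32. For miR-148b the share was 3.27%, 1.45% and 1.79% for the caput, 4.20%, 3.45% and 2.23% for the corpus and 3.65%, 2.52% and 2.22% for the cauda, and the log2 ratio differed between caput and cauda by 0.42, with an interval from -0.46 to 1.29. Neither passed in any of the 3 comparisons (limma over 64 precursors with both arms measured, Benjamini-Hochberg adjustment, adjusted p of at least 0.349 by limma).

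The arms of miR-152 did not keep their proportion. The 5p strand took 42.2%, 36.3% and 38.1% of the reads for the caput, 17.7%, 23.3% and 9.01% for the corpus and 23.2%, 15.4% and 12.2% for the cauda. Every caput library stood above every other library, while corpus and cauda overlapped. There were thus 1.58 ± 0.195 (SD, n = 3) reads of miR-152-3p for each read of miR-152-5p for the caput, 6.01 ± 3.60 (SD, n = 3) for the corpus and 5.33 ± 1.96 (SD, n = 3) for the cauda. Relative to the caput, the 5p to 3p ratio of the cauda was 3.21-fold lower, a log2 difference of -1.68 with standard error 0.44 (adjusted p 0.0260, limma), where 15.6% of the 64 precursors passed. From caput to corpus the difference was of the same size, -1.76 (standard error 0.44), but its adjusted p was 0.0528, where 1.56% of precursors passed. From corpus to cauda it was 0.07 with an adjusted p of 0.911, where 6.25% passed. At this number of libraries the calls were not firm: the adjusted p from caput to cauda was 0.0802, 0.0567 and 0.0765 without caput replicate 1, 2 or 3 and 0.0806 without cauda replicate 2, and that from caput to corpus lay between 0.00690 without cauda replicate 3 and 0.2998 without corpus replicate 3, whose 41 reads of miR-152-5p were the fewest.

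**Figure D4:**
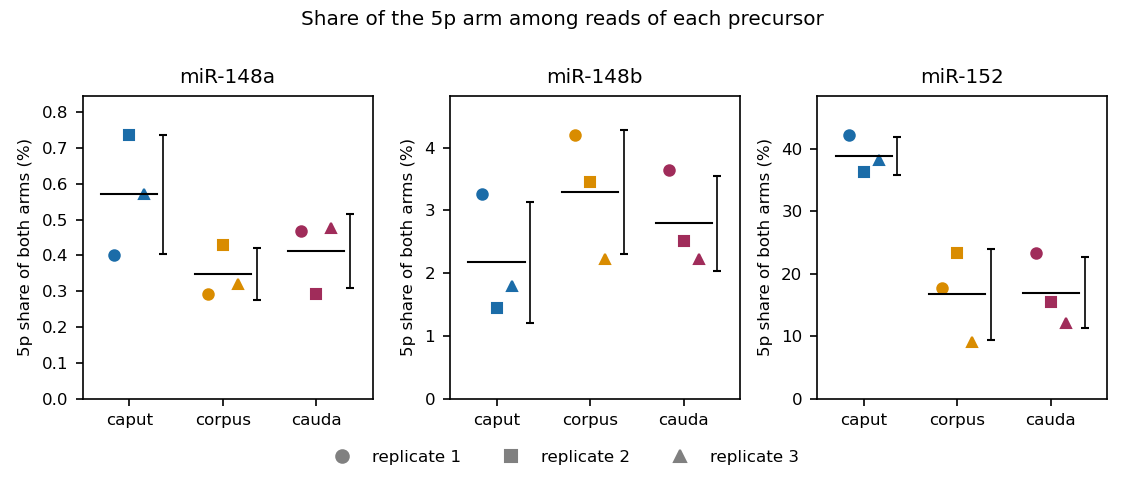
Share of the 5p strand among the reads of both arms in percent (vertical axes start at 0 and differ between panels) for the precursors of miR-148a, miR-148b and miR-152 in each library. Symbols are single libraries, lines means of 3 and bars the SD; the 5p share of miR-152 is 36.3% to 42.2% in the caput and 9.01% to 23.3% in the other segments.

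The 7 seed letters CAGUGCA also occurred within the first 9 bases of 3 miRNAs of the table outside the family, in each case shifted by 1 base, so that these start with the letters in place of carrying them at bases 2 to 8. They are shown because their names give no hint of the likeness, with the shared letters in capitals.
miR-130a-3p: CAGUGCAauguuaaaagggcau
miR-130b-3p: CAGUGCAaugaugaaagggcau
miR-301a-3p: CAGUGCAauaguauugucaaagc

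Among the 1679 mature miRNA names of RefSeq, 0.596% hold these letters there, the family included. The shifted letters give the 3 miRNAs a seed of their own, AGUGCAA, and they belong to the miR-130 family. Their sum lay between 267 and 757 CPM in the caput, between 746 and 918 CPM in the corpus and between 838 and 1008 CPM in the cauda, far below miR-148a-3p. miR-130a-3p averaged 377 ± 161 CPM (SD, n = 3) for the caput and 730 ± 74.8 CPM (SD, n = 3) for the cauda, a 2.06-fold rise (adjusted p 0.0348, limma), but its log2 fold change was 0.37 with an adjusted p of 0.143 after TMM normalization. miR-301a-3p and miR-130b-3p, with log2 fold changes of 0.65 and 0.35, did not pass from caput to cauda, and no member of this list passed in the other comparisons.

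The miR-29 family is known for acting on the de novo DNA methyltransferases, and its 3 guide strands were set beside the miR-148 and miR-152 guides as a list. None of the 3 met both criteria in any comparison on either scale. miR-29a-3p came closest, with a log2 fold change of 0.94 and an adjusted p of 0.0356 by limma from caput to cauda. Their median log2 fold change from caput to cauda was 0.84, near the median of all miRNAs tested of 0.81. miR-29a-3p was at 2050 ± 867, 3551 ± 317 and 3715 ± 729 CPM (SD, n = 3) in caput, corpus and cauda.

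Epididymosomes have no single defining miRNA, so miRNAs of the cell types that could contribute were summed in each library. The 5 epithelial miRNAs, miR-141-3p and the miR-200 family, came to 20990 to 31796 CPM for the caput, 71973 to 84209 CPM for the corpus and 44552 to 61007 CPM for the cauda. Most of this sum was miR-141-3p, with means of 17882, 65694 and 40435 CPM. The mean of miR-200b-3p was highest in the caput (3668, 2177 and 2425 CPM), and those of the other listed miRNAs were highest in the corpus. From caput to cauda 38.7% of all miRNAs tested were called higher and 10.3% lower, against which the counts of each list are read. With 4 of 4 higher in the cauda, the smooth muscle miRNAs ran from 50115 to 88995 CPM in the caput to 291676 to 354786 CPM. These were both arms of miR-143 and miR-145a, so they are not 4 separate markers. Most of their sum was miR-143-3p, with a cauda mean of 315271 CPM. The striated muscle miRNAs, 4 of 4 higher, ran from 55.5 to 197 CPM in the caput to 1403 to 4146 CPM in the cauda. Most of that cauda sum was miR-133a-3p, with a mean of 2438 CPM. Of the red blood cell miRNAs 4 of the 5 listed were in the table and all 4 were higher in the cauda, from 223 to 848 CPM up to 3019 to 4348 CPM. Of these, miR-486a-5p and miR-486b-5p had nearly the same values, with cauda means of 1749 and 1743 CPM. They made up most of the cauda sum and do not count as separate markers. miR-451a averaged 39.0, 197 and 196 CPM in caput, corpus and cauda. The paper flushed the blood vessels before dissection and detected no haemoglobin protein in its epididymosome preparations by immunoblot. Blood as a source of these reads was not tested here. All 5 miRNAs listed for germ cells (199 to 879 CPM up to 1611 to 1952 CPM) and 3 of 5 leukocyte miRNAs (231 to 530 CPM up to 392 to 1601 CPM) were higher as well, while 1 of the 5 epithelial miRNAs was higher and none lower. The germ cell list held strands of miR-34b, miR-34c and miR-449a and is not specific to germ cells. The paper reports miR-34c in the epididymal epithelium too, at a higher level in the caput than in the cauda. With TMM normalization 2 smooth muscle, 4 striated muscle, 2 red blood cell, 3 germ cell and 3 leukocyte miRNAs were higher, and 1 epithelial miRNA, miR-200b-3p, was lower, where 24.9% of all miRNAs tested were higher and 20.3% lower. The 2 red blood cell miRNAs were miR-486a-5p and miR-486b-5p. The part of these cell types in the rise of miR-152-3p and the fall of miR-148a was not tested. In RNA from vesicles, fewer vesicles of a kind and less of a miRNA in each cannot be told apart.

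The miRNAs whose log2(CPM + 1) ran most like that of each member over the 9 libraries are a description, since all points share library depth and scaling. For miR-148a-3p the closest were miR-375-3p (Pearson's r 0.93), miR-467a-5p and miR-467b-5p (0.93 each, with values that run alike), miR-182-5p (0.92) and miR-351-5p (0.91), and for miR-148a-5p they were miR-182-5p (0.97), miR-467d-5p (0.95), miR-191-5p (0.93), miR-125a-5p (0.92) and miR-204-5p (0.91). For miR-152-3p they were miR-18a-5p (0.97), miR-25-3p (0.97), miR-199b-3p and miR-199a-3p (0.96 each) and miR-195a-5p (0.94). Of these lists of 5, 3 names for each strand of miR-148a and 4 for miR-152-3p were also among the closest 5 with TMM normalization. The 3 for miR-148a-3p include both miR-467a-5p and miR-467b-5p, and the 4 for miR-152-3p both miR-199a-3p and miR-199b-3p. The values of each such pair were almost the same, so its names are not separate patterns. For miR-152-5p the closest was miR-22-5p (0.93) and for miR-148b-3p miR-1249-3p (0.87), while for miR-148b-5p none of the 5 closest, headed by miR-29b-3p (0.96), was shared between the scalings.

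Within the family the strands of miR-148a ran together, with r of 0.89 over the 9 libraries and 0.94 with TMM normalization. Those of miR-152 did not, with r of 0.44 and -0.35, nor did those of miR-148b, with 0.31 and 0.30. Between the guides of miR-148a and miR-152 r was -0.55 with library size and -0.84 with TMM normalization.

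The miRNAs next to a member in the order of mean levels are given for the 3 guide strands. Above miR-148a-3p in that order stood miR-143-3p (62956, 99958 and 315271 CPM in caput, corpus and cauda, with a mean far above that of miR-148a-3p) and miR-141-3p (17882, 65694 and 40435 CPM), and below it stood miR-30a-5p (16069, 34445 and 29557 CPM) and miR-26a-5p (16352, 19625 and 25644 CPM). Among these 5 abundant miRNAs only the mean of miR-148a-3p was highest in the caput. This was not particular to it, since the still more abundant miR-10b-5p (371443, 321396 and 188244 CPM) and miR-10a-5p (245070, 194732 and 148528 CPM) were also highest there. Around miR-152-3p stood miR-5121 (37.1, 193 and 445 CPM), miR-181c-3p (227, 189 and 160 CPM), miR-744-5p (300.5, 150 and 101 CPM) and miR-136-3p (118, 177 and 257 CPM), and around miR-148b-3p were miR-690 (441, 1003 and 526 CPM), miR-378a-3p (455, 403 and 1016 CPM), miR-98-5p (471, 659 and 717 CPM) and miR-145a-3p (196, 245 and 1343 CPM).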

How the data were processed

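Small RNA of epididymosomes was sequenced by the authors, who screened reads for contaminants with cutadapt and Bowtie, counted them on known mature miRNAs with miRDeep2 and normalised for library size. The submitters' processing notes also name CASAVA 1.8.2, Bowtie 1.1.1 and limma. The deposited values are CPM of 358 miRNAs in 9 libraries. The genome build and the miRBase release are not given in the sources used here. In every library 100% of the values were whole multiples of 1 read within 0.05 reads, and depth was taken from these steps.

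Groups followed the sample titles. Tests were made with limma 3.58 in R 4.3 (lmFit, eBayes with trend) on log2(CPM + 1), with the segment as the only factor, for miRNAs averaging 10 CPM or more in either segment compared; this scale understates changes of low miRNAs. Arm ratios used a pseudocount of 0.5 CPM. TMM factors trimmed 30% of log ratios and 5% of levels. The limma fits and the permutation test were tested on simulated data. The most abundant miRNAs were left unchanged in the simulated libraries, so shifts in them between segments were not part of that test. Of the table's names 299 of 358 matched RefSeq mature miRNAs, and gene models were those of GENCODE for GRCm38. The floor of 3 reads covers counting error only, and p-values measure the spread between pools. Replicate numbers were not taken as pairs. Named miRNAs were the members, those with the seed letters in their first 9 bases, the miR-29 list, the 5 of most similar pattern per member, of which some are named, and the neighbours in mean level. The members and lists were chosen with earlier results of these data known. Python 3.11, pandas 2.3 and matplotlib 3.10 were used. Distances of the hairpins to some further genes are not reported here.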

Additional observations from a re-analysis of the deposited data

How the results depend on the processing

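From caput to corpus 1 member was called, and 2 were with TMM normalization, with median-of-ratios size factors or with library size taken without the 3 most abundant miRNAs, miR-148a-5p being added each time. From corpus to cauda 1 member was called, and 2 were with TMM normalization, with median-of-ratios size factors or in a fit of the 6 libraries compared. A test against a fold of 2 left 0 members from caput to corpus, 0 from corpus to cauda and 1 of 3 from caput to cauda. Leaving out each library in turn gave 0 to 1 members from caput to corpus (0 without corpus replicate 3), 1 to 2 from corpus to cauda (2 without caput replicate 3) and 3 throughout from caput to cauda. Precursors of the family called for their arm ratio went from 0 to 1 between caput and corpus with a pseudocount of 2 CPM, and from 1 to 0 between caput and cauda with both arms at 50 CPM, where miR-152 was not among those tested. Leaving out libraries gave 0 to 1 in both (1 from caput to corpus without corpus replicate 2 or cauda replicate 1 or 3, and 0 from caput to cauda without cauda replicate 2 or any of the caput replicates). The ratios between guide strands kept direction and call under a pseudocount of 10 CPM and without each library.

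The replicate block (replicate number as a factor) changed no count of members called and gave 1 precursor, miR-152, from caput to corpus in place of 0, with an adjusted p of 0.0126 by limma. Deviations from the segment means correlated at -0.21 to 0.41 between same-numbered libraries, with 6 of 9 pairs over 0.1, and at -0.45 to 0.18 between the others. As not all same-numbered pairs were over 0.1 and no label ties the numbers to shared animals, they were not read as pairs.

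No strand whose sign turned was called. With TMM normalization miR-148b-5p was at -0.23 from caput to corpus and -0.39 from caput to cauda, and miR-152-5p at -0.11 from caput to cauda. With median-of-ratios size factors these were -0.18, -0.43 and -0.15, and miR-148b-3p was at -0.040 from corpus to cauda. Without the 3 most abundant miRNAs in the library size miR-148b-5p was at 0.075 from corpus to cauda. Leaving out libraries, miR-148b-3p ranged from -0.56 to 0.026 from caput to corpus, -0.0032 to 0.45 from corpus to cauda and -0.34 to 0.19 from caput to cauda. In the same order miR-148b-5p ranged from -0.094 to 0.54, -0.13 to 0.023 and -0.16 to 0.48, and miR-152-5p from -0.38 to 0.25 in the first. The arm ratio of miR-152 ranged from -0.38 to 0.42 from corpus to cauda. All are log2 values, and the cause was not tested. Of 215 single values recomputed without leaving out libraries, 195 kept direction and call. The planned edgeR alternative was not run. With 26 to 201 reads, miR-148b-5p is the member whose values depth limits most.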
